A study of Mus musculus with 6 samples.

Results

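The genes described here encode the enzymes and transporters that carry glucose through glycolysis and the pentose phosphate pathway. They comprise 37 gene symbols, which were read in the order of the pathway in 10 steps, from glucose uptake to lactate export and the pentose branch. A symbol match found 38 of the 54532 entries of the deposited table, because Aldoa stands on 2 gene IDs, and 37 of the 38 entries passed the filter of 1 TPM in at least 2 libraries. The exception was Fbp1, which was listed at 0 in all 6 libraries. The cells were primary bone-marrow-derived macrophages (BMDMs) of wild-type C57BL/6 mice, grown in culture with medium conditioned by L929 fibroblasts. There were 3 groups of 2 RNA-seq libraries each. Untreated cells received neither agent, LPS cells received lipopolysaccharide (100 ng/ml) for 2 h, and Met + LPS cells were kept in metformin (5 mM) for 6 h before the same LPS stimulation. No group with metformin alone was analysed here, so the Met + LPS group is set against LPS and against untreated cells only.

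Glycolysis splits glucose into pyruvate, which can be reduced to lactate and exported, and yields a little ATP without oxygen. The pentose phosphate pathway leaves glycolysis at glucose 6-phosphate, and its oxidative branch makes NADPH while its non-oxidative branch interconverts sugar phosphates. Macrophages sense LPS, which comes from the outer wall of Gram-negative bacteria, through the receptor TLR4, and activated macrophages are known for a high use of glucose. Metformin is a diabetes drug that inhibits complex I of the mitochondrial respiratory chain.

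Values are given in TPM, which scales the reads of each gene by its length and brings every library to the same total. The reads recovered from the TPM values amounted to 25457016 to 30762754 per library. All 8 macrophage markers were expressed, with summed TPM of 44621 to 46599 in untreated, 37412 to 37903 in LPS and 30877 to 30948 in Met + LPS cells. Most of the sum was Lyz2, with mean TPM of 34912, 26835 and 21292 in these groups. Under LPS, Cd14 (955 to 2763 TPM) and Adgre1 (1543 to 1717 TPM) were higher as deposited, and Fcgr1 had 165 TPM with and without LPS. The other markers, Cd68, Csf1r, Itgam, Lyz2 and Mertk, were lower as deposited. After the rescaling described below, their log2 fold changes were 0.19, 0.01, 0.3, 0.15 and -0.75 in this order, and that of Fcgr1 was 0.52. In Met + LPS cells Fcgr1 had 74.4 TPM. None of the lymphocyte, fibroblast or erythroid markers reached 1 TPM in 2 libraries. Of 7 neutrophil markers 4 did, and their list summed to 27.7 to 30.9 TPM in untreated, 24.5 to 26.2 TPM in LPS and 41.0 to 42.4 TPM in Met + LPS cells, while Ly6g was at 0 in 5 libraries and at 0.14 TPM in Met + LPS replicate 1. Of 4 dendritic cell markers 2 reached 1 TPM in 2 libraries, and the list summed to at most 2.8 TPM. The part of these cells in the values below was not tested. The 5 LPS response genes Cxcl2, Il6, Nfkbia, Ptgs2 and Tnf summed to 131 to 138 TPM in untreated cells, to 7838 to 7966 after LPS alone and to 12502 to 13014 after metformin and LPS. The last rise lay mostly in Tnf (mean 3917 to 8069 TPM) and Cxcl2 (566 to 1521 TPM). Il6 (177 to 199 TPM) and Ptgs2 (544 to 587 TPM) did not pass the limma test used below, and Nfkbia was lower (2699 to 2381 TPM). With a fixed total, the TPM of the median tested gene was lower in LPS than in untreated cells by 0.48 on the log2 scale. Dividing each library by its median ratio to the geometric mean of the libraries across tested genes (median-ratio rescaling) brought this to -0.01, and log2 fold changes against untreated cells are therefore also given after rescaling, while levels are TPM as deposited.

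Slc2a6, Hk2 and Pfkfb3 had the largest increases of all members under LPS and Pfkfb4 the largest decrease on the log2(TPM + 1) scale, and their promoters are shown to give the sequence around the start sites of these 4 genes. Each window covers 250 bases before to 50 bases after a RefSeq start site on the build GRCm38.p6 and is written 5′ to 3′ on the strand of the gene. The windows are chr2:27027949-27028248 (minus strand) for Slc2a6, chr6:82774405-82774704 (minus strand) for Hk2, chr2:11553880-11554179 and chr2:11502041-11502340 (minus strand) for the upstream and downstream start sites of Pfkfb3, and chr9:108991652-108991951 (plus strand) for Pfkfb4. Capitals mark matches to ACGTG or GCGTG on either strand, the core letters of the hypoxia response element, with ACGTG also lying in the E-box CACGTG.
Slc2a6: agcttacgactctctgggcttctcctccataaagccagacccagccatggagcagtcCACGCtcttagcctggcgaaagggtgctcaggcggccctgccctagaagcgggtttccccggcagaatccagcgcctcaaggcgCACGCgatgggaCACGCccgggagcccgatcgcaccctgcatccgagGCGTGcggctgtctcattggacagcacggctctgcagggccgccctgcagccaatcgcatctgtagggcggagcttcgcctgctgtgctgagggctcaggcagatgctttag
Hk2: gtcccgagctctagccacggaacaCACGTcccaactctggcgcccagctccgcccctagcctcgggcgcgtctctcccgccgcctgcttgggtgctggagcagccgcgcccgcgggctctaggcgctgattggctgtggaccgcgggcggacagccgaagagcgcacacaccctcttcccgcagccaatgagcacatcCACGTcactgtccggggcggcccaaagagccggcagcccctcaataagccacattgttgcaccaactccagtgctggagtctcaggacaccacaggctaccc
Pfkfb3, upstream start: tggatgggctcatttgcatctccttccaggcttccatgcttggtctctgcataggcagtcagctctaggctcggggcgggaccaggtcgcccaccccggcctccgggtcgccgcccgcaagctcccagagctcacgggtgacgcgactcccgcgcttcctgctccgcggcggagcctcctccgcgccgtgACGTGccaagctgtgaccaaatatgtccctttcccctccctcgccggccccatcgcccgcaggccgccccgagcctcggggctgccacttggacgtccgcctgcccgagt
Pfkfb3, downstream start: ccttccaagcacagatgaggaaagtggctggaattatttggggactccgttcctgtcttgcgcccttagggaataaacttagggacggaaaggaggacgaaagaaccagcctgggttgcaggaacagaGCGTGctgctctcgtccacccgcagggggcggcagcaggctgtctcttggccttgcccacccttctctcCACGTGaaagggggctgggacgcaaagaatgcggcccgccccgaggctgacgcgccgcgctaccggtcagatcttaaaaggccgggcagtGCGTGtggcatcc
Pfkfb4: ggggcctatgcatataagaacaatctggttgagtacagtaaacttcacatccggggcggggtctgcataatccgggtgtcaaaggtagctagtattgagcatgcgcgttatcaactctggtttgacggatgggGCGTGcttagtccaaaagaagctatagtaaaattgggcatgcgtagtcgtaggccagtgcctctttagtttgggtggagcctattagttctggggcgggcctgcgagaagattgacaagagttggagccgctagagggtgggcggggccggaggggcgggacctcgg

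Slc2a6 had 4 such matches and Hk2 had 2. The upstream start of Pfkfb3 had 1 and the downstream start 4, of which 2 overlap in a single CACGTG. Pfkfb4, which moved the other way, had 1. Among the other members with 4 or more matches in a window, the direction under LPS differed. Slc16a1 (5 matches), Hk1 (0 and 5) and Pfkp (4) were higher on either scale, at 0.58, 0.24 and 0.80 as deposited. Pfkfb2, like Pfkfb4 lower under LPS (log2 fold change -1.56), had windows with 4, 1 and 1 matches. Ldha had windows with 7 and 2, and its log2 fold change under LPS was -0.33 as deposited and 0.20 after rescaling. A relation between match count and direction was not tested. Windows were found for 36 of the 37 symbols (51 windows), Slc2a3 being the one without, and 40 of the 51 (78.4%) held a match, against 62% of the 11554 windows of tested genes and 43.8% of all 32817 windows of the table. The median GC content was 60.7% in the windows of the members and of the tested genes and 52.7% in all windows. The full E-box CACGTG was in 5 of the 51 windows (9.8%), against 10.2% of the windows of tested genes. The κB consensus bound by NF-κB was in 5 of the 51 windows (9.8%), against 10.3% of the windows of tested genes, and an ATF4-like sequence (TGATGNAA, either strand) in 0, against 2.33%. A match only says that the letters are there.

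LPS stimulation for 2 h raised a small set of members several-fold, while most of the others lay near the median gene. In LPS compared with untreated cells, 34 of the 37 tested entries passed the test, which was limma with a Benjamini-Hochberg adjusted p-value under 0.01 (76.3% of the 12755 tested genes did). Of these, 8 were higher (21.6%, against 16.2% of all tested genes) and 26 were lower (70.3%, against 60.1%). After rescaling, 14 were higher (37.8%, against 30.6%) and 3 were lower (8.11%, against 27.6%), the 3 being Slc2a3, Pfkfb2 and Pfkfb4. The median log2 fold change of the members was -0.41 as deposited and 0.09 after rescaling, beside -0.48 and -0.01 for all tested genes. The study's cut-offs, which also ask for a log2 fold change of 2 or more in either direction, were passed by 3 members (8.11%, against 6.08%), namely Slc2a6, Pfkfb3 and Hk2, and by 3 (against 6.22%) after rescaling. The LPS and untreated libraries did not overlap for any of the 37 entries, which also held for 91.6% of all tested genes. Of the 34 entries past the test, 28 passed it whichever library was left out, and the 6 that did not were Hk1, Hk3, Eno2, Ldhb, Rpia and the second ID of Aldoa. The share of all tested genes that stays past the test with a library left out was not computed, so this count has no background beside it. The libraries are bulk samples, in which fewer cells of a type and less RNA per cell cannot be told apart.

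**Figure D1:**
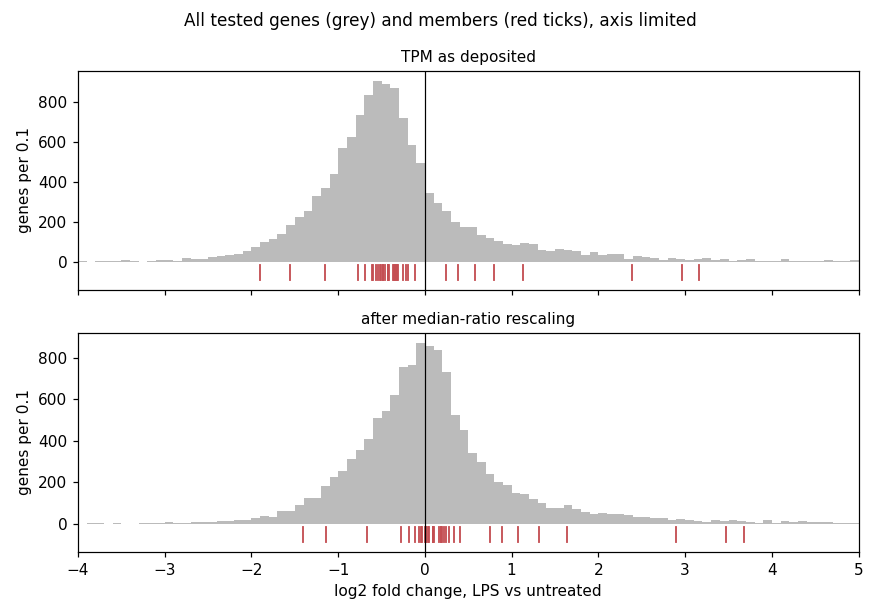
Log2 fold changes of LPS against untreated cells for all 12755 tested genes (grey bars, genes per bin) and for the tested members (red ticks under the axis), with TPM as deposited (top) and after median-ratio rescaling (bottom), on an axis limited to the range that holds the members. Most ticks lie close to the peak of all genes on both scales, and Slc2a6, Pfkfb3 and Hk2 stand far to the right at 3.16, 2.96 and 2.39 in the top panel.

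After metformin pretreatment some members were higher and more were lower than after LPS alone, and few of the differences were large. In Met + LPS compared with LPS cells, 18 of the 37 entries (48.6%) passed the test, against 32.6% of all tested genes, of which 7 were higher (18.9%, against 14.5%) and 11 lower (29.7%, against 18%). The higher ones were Slc2a1, Hk3, Pfkp, Pgam1, Slc16a1, Pgd and Taldo1, and the lower ones were Slc2a6, Hk1, Hk2, Pfkfb3, Aldoc, Tpi1, Eno1, Pkm, Ldha, G6pdx and Tkt. After rescaling the counts were again 7 higher (against 15.6%) and 11 lower (against 17.4%). The median log2 fold change was -0.12 for the members and -0.03 for all tested genes. The count of lower members was 6 without LPS replicate 1, 6 without LPS replicate 2, 6 without Met + LPS replicate 1 and 7 without Met + LPS replicate 2, and 11 of the 18 members passed the test whichever library was left out. The 7 that did not are Hk1, Hk2, Eno1, Pkm, Slc16a1, Pgd and Tkt. Shares of all tested genes were not computed with a library left out. Whether the excess of lower members over all tested genes remains in those fits therefore cannot be read from these counts. The study's cut-offs, here with a log2 fold change of 0.7 or more in either direction, were passed by Pfkfb3 and Slc2a6 (5.41%, against 8.28%). The libraries did not overlap for 28 of the 37 entries (75.7%), against 73.8% of all tested genes. This comparison shares its LPS libraries with the comparison of LPS and untreated cells, so that the values of both are given side by side below and their relation is not tested.

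**Figure D2:**
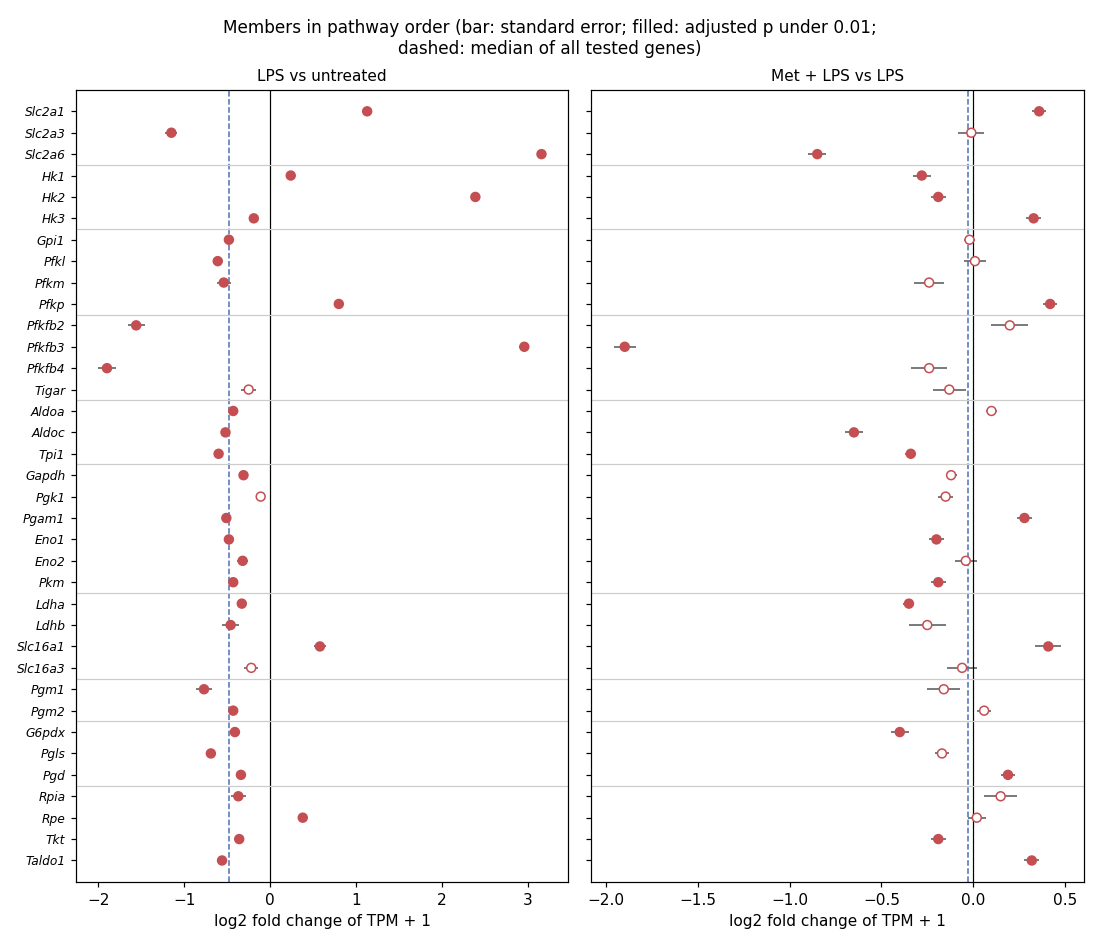
Log2 fold change of TPM + 1 (x axis) of the 36 tested symbols in pathway order (y axis, the second Aldoa ID left out) for LPS vs. untreated (left) and Met + LPS vs. LPS (right), with bars for the standard error, filled points for an adjusted p under 0.01 (limma) and a dashed line at the median of all tested genes. On the left most members lie near the dashed line at -0.48, and on the right Pfkfb3 stands apart at -1.90.

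Glucose enters the cell through facilitative transporters. Slc2a6 (GLUT6, a transporter found on lysosomal membranes; chromosome 2, 27021363 to 27027998, minus strand, GRCm38) had 65.9 and 67.3 TPM in untreated, 577 and 627 TPM in LPS and 328 and 339 TPM in Met + LPS cells. The 3 groups did not overlap. The increase under LPS was 9.04-fold in mean TPM (log2 fold change 3.16 ± 0.05 (SE), limma adjusted p = 1.84e-08, 3.68 after rescaling), and the Met + LPS level was 1.80-fold lower than the LPS level (log2 fold change -0.85 ± 0.05, limma adjusted p = 4.08e-05). Slc2a1 (GLUT1, the widely expressed transporter of the plasma membrane; chromosome 4, 119108711 to 119137983, plus strand) had 30.7 and 29.5 TPM in untreated, 67.0 and 67.3 TPM in LPS and 85.7 and 87.6 TPM in Met + LPS cells. It was 2.23-fold higher in LPS than in untreated cells (log2 fold change 1.13, limma adjusted p = 7.45e-07, 1.64 after rescaling) and a further 1.29-fold higher in Met + LPS than in LPS cells (limma adjusted p = 0.000504), so that Slc2a1 and Slc2a6 both rose under LPS and differed in opposite directions after metformin. Slc2a3 (GLUT3, a high-affinity transporter) had 13.7 and 13.9 TPM in untreated, 5.37 and 6.01 TPM in LPS and 5.68 and 5.57 TPM in Met + LPS cells. It was lower under LPS (log2 fold change -1.15 as deposited and -0.67 after rescaling, both past the test) and its LPS and Met + LPS libraries overlapped.

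The summed TPM of these 3 transporters was 111 ± 0.263 (SD, n = 2) in untreated, 675 ± 36.6 in LPS and 426 ± 8.97 in Met + LPS cells. Slc2a6 made up 60.3% ± 0.722 of this sum in untreated, 89.2% ± 0.486 in LPS and 78.3% ± 0.164 in Met + LPS cells, and Slc2a1 27.2% ± 0.871, 9.96% ± 0.509 and 20.3% ± 0.117. Slc2a3 held 12.5% ± 0.149, 0.843% ± 0.0221 and 1.32% ± 0.0462. Shares are descriptions without a test and are taken within the listed genes only, so that Slc2a8 (24.3 TPM in untreated cells), Slc2a9 (10.6 TPM) and, for the PFKFB genes, Pfkfb1 (1.29 TPM) are not in the sums. They depend on the gene length used, which here is the combined length of all exons of a gene.

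Hexokinases phosphorylate glucose and so trap it in the cell. Hk2 (hexokinase 2, an inducible isoenzyme that binds to mitochondria; chromosome 6, 82725025 to 82774454, minus strand) had 26.6 and 26.9 TPM in untreated, 146 and 144 TPM in LPS and 130 and 124 TPM in Met + LPS cells. The increase under LPS was 5.41-fold (log2 fold change 2.39 ± 0.04, limma adjusted p = 2.25e-08, 2.90 after rescaling). The Met + LPS libraries lay just below the LPS libraries, with a log2 fold change of -0.19 ± 0.04 (limma adjusted p = 0.00607, and up to 0.0336 with a library left out). Hk3, the isoenzyme of myeloid cells and the most abundant one here, had 391 and 406 TPM in untreated, 342 and 354 TPM in LPS and 442 and 435 TPM in Met + LPS cells. Its difference under LPS was lower as deposited (log2 fold change -0.19) and higher after rescaling (0.33), and both values passed the test. It was 1.26-fold higher in Met + LPS than in LPS cells (log2 fold change 0.33 ± 0.04, limma adjusted p = 0.000481). Hk1, the housekeeping isoenzyme, had 52.9 and 56.9 TPM in untreated, 65.2 and 64.4 TPM in LPS and 54.4 and 51.9 TPM in Met + LPS cells, with log2 fold changes of 0.24 under LPS (0.75 after rescaling) and -0.28 after metformin that both passed the test with all libraries.

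These 3 hexokinases together had 480 ± 13.7, 558 ± 7.28 and 618 ± 10.8 TPM in untreated, LPS and Met + LPS cells. The share of Hk2 was 5.58% ± 0.115 in untreated, 26.0% ± 0.527 in LPS and 20.5% ± 0.284 in Met + LPS cells, while Hk3 went from 83.0% ± 0.139 to 62.4% ± 0.778 and 70.9% ± 0.418. Hk1 held 11.4% ± 0.255, 11.6% ± 0.252 and 8.6% ± 0.133.

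Phosphofructokinase catalyses the first step that commits sugar to glycolysis and acts on the product of phosphoglucose isomerase. Pfkp (the platelet-type subunit; chromosome 13, 6579768 to 6648777, minus strand) had 42.8 and 44.6 TPM in untreated, 74.8 and 78.4 TPM in LPS and 102 and 103 TPM in Met + LPS cells. The libraries of the 3 groups did not overlap, and Pfkp was 1.75-fold higher under LPS (log2 fold change 0.80, limma adjusted p = 4.84e-06, 1.31 after rescaling) and 1.34-fold higher again in Met + LPS cells (limma adjusted p = 0.000388). Pfkl (the liver-type subunit) had 19.3 and 20.6 TPM in untreated, 12.9 and 12.6 TPM in LPS and 12.3 and 13.4 TPM in Met + LPS cells. Pfkm (the muscle-type subunit) had 18.6 and 20.9 TPM in untreated, 14.0 and 12.6 TPM in LPS and 11 and 11.3 TPM in Met + LPS cells. Both were lower under LPS as deposited, with log2 fold changes of -0.61 and -0.54, and neither passed the test after rescaling, at -0.11 and -0.04. Against LPS cells, neither Pfkl (0.01) nor Pfkm (-0.24, limma adjusted p = 0.0422) passed in Met + LPS cells. The share of Pfkp in the summed phosphofructokinase TPM was 52.4% ± 0.906, 74.6% ± 1.46 and 81.0% ± 0.422 in the 3 groups. Pfkl held 23.9% ± 0.022, 12.4% ± 0.331 and 10.2% ± 0.413, and Pfkm 23.7% ± 0.883, 13.0% ± 1.12 and 8.79% ± 0.0082. Gpi1, the isomerase, had 153 ± 0.149 TPM in untreated, 109 ± 2.18 TPM in LPS and 108 ± 1.38 in Met + LPS cells, and its log2 fold change under LPS was -0.48 as deposited and 0.04 after rescaling, the latter not past the test.

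The PFKFB enzymes make and break fructose 2,6-bisphosphate, the strongest activator of phosphofructokinase, and this family held both the largest metformin difference and the largest decreases under LPS among the members on the log2(TPM + 1) scale. In mean TPM the second ID of Aldoa, with 0 to 9 reads per library, had a larger ratio under LPS (7.88-fold lower). Pfkfb3 (an isoenzyme with much more kinase than phosphatase activity; chromosome 2, 11471433 to 11554077, minus strand) had 16.5 and 16.4 TPM in untreated, 134 and 136 TPM in LPS and 37.8 and 33.3 TPM in Met + LPS cells. It was 8.22-fold higher in LPS than in untreated cells (log2 fold change 2.96 ± 0.06, limma adjusted p = 8.08e-08, 3.47 after rescaling). In Met + LPS cells it was 3.80-fold lower than in LPS cells (log2 fold change -1.90 ± 0.06, limma adjusted p = 8.59e-06), which was number 16 by size among all decreases in the tested genes, and still 2.16-fold higher than in untreated cells (log2 fold change 1.06, limma adjusted p = 7.22e-06, 1.58 after rescaling). Pfkfb4 (the isoenzyme first known from testis; chromosome 9, 108991778 to 109032228, plus strand) had 26.4 and 26.7 TPM in untreated, 6.74 and 6.04 TPM in LPS and 4.72 and 5.79 TPM in Met + LPS cells. It was 4.16-fold lower under LPS (log2 fold change -1.90 ± 0.10, limma adjusted p = 4.10e-06, -1.41 after rescaling), and its difference between Met + LPS and LPS cells did not pass the test (-0.24 ± 0.10, limma adjusted p = 0.0789). Pfkfb2, the isoenzyme best known from heart (chromosome 1, 130689182 to 130729253, minus strand), had 7.05 and 7.52 TPM in untreated, 1.87 and 1.76 TPM in LPS and 2.43 and 2.06 TPM in Met + LPS cells. It was 4.02-fold lower under LPS (log2 fold change -1.56 ± 0.10, limma adjusted p = 1.18e-05, -1.14 after rescaling), with 93 reads in the lowest library and 19.5% of its exon bases shared with Gm29427. Tigar, a phosphatase that removes fructose 2,6-bisphosphate, had 16.0 ± 0.477, 13.3 ± 0.251 and 12.1 ± 1.55 TPM and passed the test neither under LPS nor after metformin.

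Pfkfb4 was the most abundant of the 3 PFKFB genes in untreated cells, with 52.8% ± 0.0361 of their summed TPM, ahead of Pfkfb3 with 32.7% ± 0.468 and Pfkfb2 with 14.5% ± 0.504. In LPS cells Pfkfb3 held 94.3% ± 0.443, Pfkfb4 4.46% ± 0.379 and Pfkfb2 1.26% ± 0.0641. In Met + LPS cells Pfkfb3 held 82.5% ± 2.24, Pfkfb4 12.3% ± 2.52 and Pfkfb2 5.20% ± 0.284. The sum of the 3 genes was 50.3 ± 0.552 TPM in untreated, 143 ± 1.19 TPM in LPS and 43.0 ± 2.67 in Met + LPS cells. The Met + LPS sum lay below the untreated one as deposited and above it after rescaling, at 48.9 ± 3.04 against 39.3 ± 0.309, with 161 ± 2.08 in LPS cells.

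**Figure D3:**
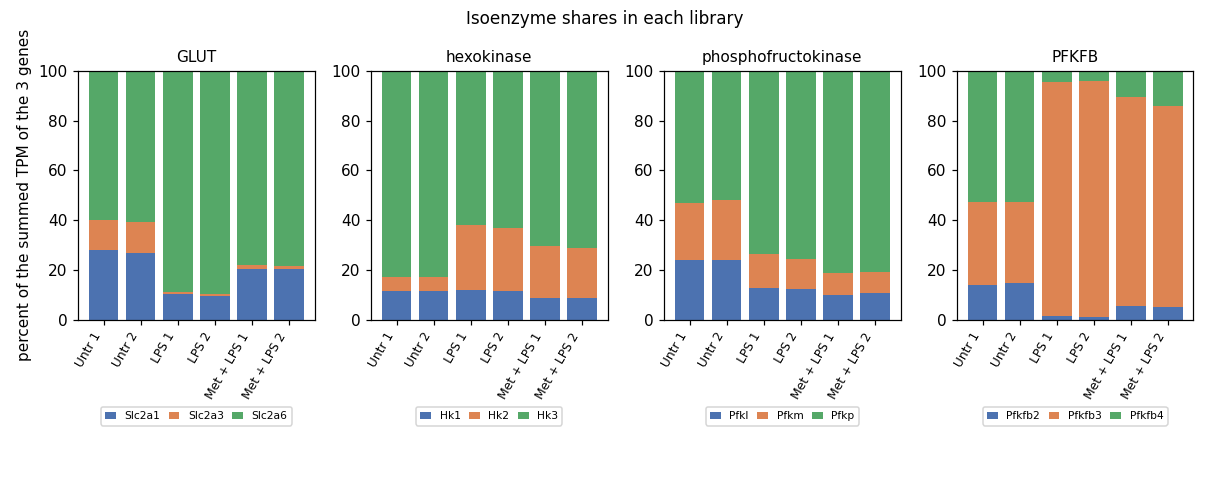
Share of each gene in the summed TPM of the 3 listed genes of its family (y axis, percent) in each of the 6 libraries (x axis) for the glucose transporters (GLUT), hexokinases, phosphofructokinases and PFKFB enzymes. In the PFKFB panel Pfkfb3 goes from 32.7% in untreated to 94.3% in LPS and 82.5% in Met + LPS cells, and the 2 libraries of a group look alike in every panel.

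**Figure D4:**
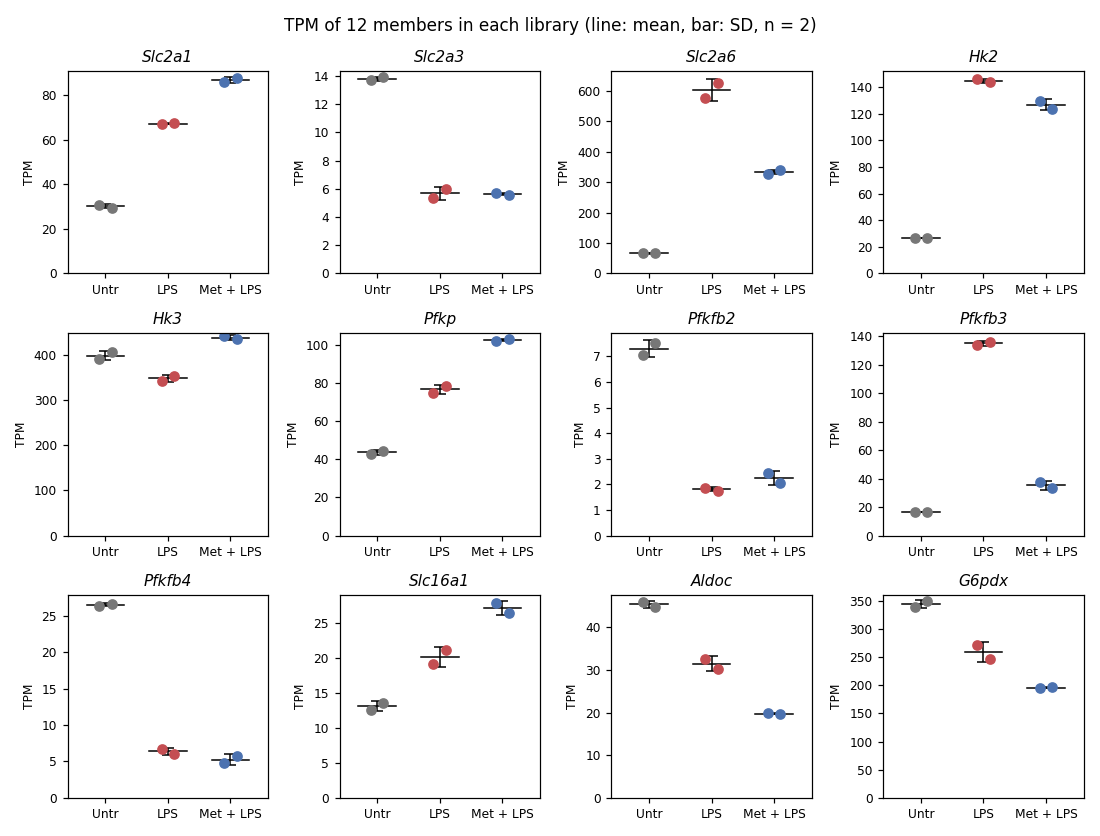
TPM (y axis, linear from 0) of 12 members in each library, with points for libraries, a line for the mean and a bar for the SD (n = 2) of untreated (Untr), LPS and Met + LPS cells. Slc2a1, Pfkp and Slc16a1 step up from group to group, Slc2a6 and Pfkfb3 peak in LPS cells, and Pfkfb2, Pfkfb4 and Slc2a3 are high in untreated cells alone.

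Aldolase splits the sugar bisphosphate into 2 trioses and triose phosphate isomerase interconverts them. Aldoa, the main aldolase here, had 1137 ± 4.07 TPM in untreated, 843 ± 5.65 TPM in LPS and 904 ± 14.7 in Met + LPS cells. Its log2 fold change was -0.43 under LPS as deposited and 0.09 after rescaling (limma adjusted p = 0.0241), and 0.10 after metformin (limma adjusted p = 0.0285). Aldoc (chromosome 11, 78322968 to 78327781, plus strand), an aldolase best known from brain, had 46.0 and 44.8 TPM in untreated, 32.7 and 30.3 TPM in LPS and 19.8 and 19.6 TPM in Met + LPS cells. Its log2 fold change under LPS was -0.52 as deposited and 0.00 after rescaling, and it was 1.6-fold lower in Met + LPS than in LPS cells (-0.65 ± 0.05, limma adjusted p = 0.000129). Tpi1 had 350 ± 6.34, 231 ± 1.52 and 182 ± 2.36 TPM and was 1.27-fold lower in Met + LPS than in LPS cells (limma adjusted p = 0.000256). Under LPS Tpi1 had a log2 fold change of -0.6 as deposited and -0.07 after rescaling, the latter not past the test. The second ID named Aldoa (chromosome 7, 126800790 to 126809108) rests on 0 to 9 reads per library, and its call as lower under LPS (log2 fold change -1.02 ± 0.21) missed the threshold after rescaling (-0.80, limma adjusted p = 0.0148).

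The 6 genes of lower glycolysis turn triose phosphate into pyruvate and include some of the most abundant members. Pkm (pyruvate kinase, the last step) had 1199 ± 30.4 TPM in untreated, 888 ± 28.6 TPM in LPS and 779 ± 10.9 in Met + LPS cells. Gapdh (the dehydrogenase step, often used as a reference gene) had 382 ± 2.12, 309 ± 2.29 and 285 ± 0.575 TPM. Under LPS, 5 of the 6 passed the test as lower, with log2 fold changes from -0.51 (Pgam1, the mutase) to -0.31 (Gapdh), while Pgk1 (phosphoglycerate kinase) at -0.11 did not. After rescaling none of the 6 was below 0, and Pgk1 (0.41) and Gapdh (0.22) passed as higher. In Met + LPS against LPS cells, Eno1 (enolase, -0.20 ± 0.04, limma adjusted p = 0.00632) and Pkm (-0.19 ± 0.04, limma adjusted p = 0.00608) were lower and Pgam1 was higher (0.28 ± 0.04, limma adjusted p = 0.00101), with 139 ± 3.36 against 121 ± 4.37 TPM for Eno1 and 114 ± 2.82 against 138 ± 2.41 TPM for Pgam1. Eno2, the enolase best known from neurons, had 18.8 ± 0.299 and 18.3 ± 0.701 TPM, and its libraries overlapped. Several of these genes have near-identical copies in the genome that could take or give reads in the authors' counting. The share of 31-base stretches found in no other gene was 45.3% for Pgk1, 62.9% for Pgam1, 65.3% for Pkm, 71.5% for Eno1 and 71.9% for Gapdh, so their levels are uncertain.

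Lactate dehydrogenase reduces pyruvate to lactate, which leaves the cell through monocarboxylate transporters. Slc16a1 (MCT1, chromosome 3, 104638668 to 104658462, plus strand) had 12.6 and 13.6 TPM in untreated, 19.1 and 21.1 TPM in LPS and 27.9 and 26.4 TPM in Met + LPS cells. It was 1.54-fold higher under LPS (log2 fold change 0.58 ± 0.07, limma adjusted p = 0.000206, 1.07 after rescaling) and 1.35-fold higher again in Met + LPS cells (0.41 ± 0.07, limma adjusted p = 0.00307, and up to 0.0235 with a library left out). Slc16a3 (MCT4, the transporter of cells that release much lactate) had 22.0 ± 0.656, 18.8 ± 2.01 and 18.0 ± 0.782 TPM and passed the test neither under LPS nor after metformin. Ldha had 567 ± 6.84, 451 ± 0.393 and 354 ± 3.55 TPM. Its log2 fold change under LPS was -0.33 as deposited and 0.20 after rescaling, both past the test, and it was lower in Met + LPS than in LPS cells on either scale (-0.35 ± 0.03, limma adjusted p = 0.000173). Ldhb, the subunit of heart-type lactate dehydrogenase, had at most 9.69 TPM and 68 to 109 reads per library.

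Fbp1, the fructose bisphosphatase of gluconeogenesis, had 0 reads in every library. Pgm1 is a phosphoglucomutase that links glucose phosphates to glycogen, and Pgm2 was listed with it. Pgm1 and Pgm2 had 16.9 ± 1.16 and 54.1 ± 1.79 TPM in untreated cells, 9.47 ± 0.672 and 39.9 ± 0.312 TPM in LPS cells, and 8.39 ± 0.875 and 41.7 ± 0.182 TPM in Met + LPS cells. Both were lower under LPS as deposited (-0.77 and -0.43), neither passed after rescaling (-0.28 and 0.09), and neither passed the test after metformin.

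In the oxidative pentose branch, G6pdx (glucose 6-phosphate dehydrogenase, the entry enzyme and first source of NADPH; chromosome X, 74409483 to 74429194, minus strand) had 339 and 350 TPM in untreated, 271 and 246 TPM in LPS and 195 and 196 TPM in Met + LPS cells. It was 1.32-fold lower in Met + LPS than in LPS cells (log2 fold change -0.40 ± 0.05, limma adjusted p = 0.00086), and its log2 fold change under LPS was -0.41 as deposited and 0.11 after rescaling, the latter not past the test. Of its exon bases 13.6% are shared with Ikbkg, and the counting is not stated to use strand. Pgd, which makes the second NADPH of the branch, had 255 ± 6.04, 202 ± 2.15 and 231 ± 7.63 TPM and was higher in Met + LPS than in LPS cells (0.19 ± 0.04, limma adjusted p = 0.0055), the opposite direction to G6pdx. Pgls, the lactonase between them, had 60.9 ± 0.0285, 37.3 ± 0.407 and 33.2 ± 1.34 TPM, and its log2 fold change after metformin was -0.17 (limma adjusted p = 0.0192), with 20.6% of its exon bases shared with Fam129c. Under LPS the log2 fold change of Pgls was -0.69 as deposited and -0.18 after rescaling, the latter not past the test.

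The non-oxidative branch also split after metformin. Taldo1 (transaldolase) had 489 ± 4.0 TPM in untreated, 332 ± 0.421 TPM in LPS and 416 ± 20.8 in Met + LPS cells and was higher in Met + LPS than in LPS cells (log2 fold change 0.32 ± 0.04, limma adjusted p = 0.000875). Under LPS Taldo1 had a log2 fold change of -0.56 as deposited and -0.03 after rescaling, the latter not past the test. Tkt (transketolase), which works with it, had 202 ± 1.57, 157 ± 0.971 and 137 ± 4.51 TPM and was lower (-0.19 ± 0.04, limma adjusted p = 0.00473). Rpe, the epimerase, had 38.1 ± 0.0649 TPM in untreated, 49.7 ± 0.841 TPM in LPS and 50.3 ± 2.38 in Met + LPS cells and was the one gene of both pentose branches that was higher under LPS on either scale as well as past the test (0.38 as deposited, 0.89 after rescaling), but 17.9% of its exon bases are shared with Kansl1l. Pgd and Tkt were higher after rescaling alone (0.19 and 0.16), having been lower as deposited. Rpia, the isomerase, had 7.6 ± 0.323, 5.68 ± 0.397 and 6.41 ± 0.541 TPM.

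In Met + LPS compared with untreated cells, 33 of the 37 entries passed the test (89.2%, against 75.1% of all tested genes), of which 8 were higher (21.6%, against 16.3%) and 25 lower (67.6%, against 58.8%). After rescaling 15 were higher (against 33.4%) and 9 lower (against 29.7%). The study's LPS cut-offs were passed by 3 (8.11%, against 5.35%), Slc2a6 (log2 fold change 2.31), Hk2 (2.20) and Pfkfb4 (-2.14). After rescaling they were passed by 3 (against 5.25%), Slc2a6 (2.84), Hk2 (2.73) and Slc2a1 (2.02), and no longer by Pfkfb4 (-1.65). Slc2a1 (1.49), Pfkp (1.21, or 1.74 after rescaling), Pfkfb3 (1.06) and Slc16a1 (1.0, or 1.5 after rescaling) were also higher in TPM, at 2.88-fold, 2.35-fold, 2.16-fold and 2.07-fold. The summed TPM of all members was 6741 ± 71.8 in untreated, 6017 ± 4.71 in LPS and 5534 ± 76.6 in Met + LPS cells. After rescaling the sums were 5267 ± 39.7, 6774 ± 36.2 and 6291 ± 86.5, so both differences from untreated cells turned the other way.

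A further list held 43 genes of the same pathways, among them further isoenzymes, glycogen enzymes and phosphate transporters, of which 30 passed the filter and 6 were at 0 in every library. Under LPS, 2 of the 30 were higher (6.67%, against 16.2% of all tested genes) and 23 lower (76.7%, against 60.1%), and after rescaling 6 were higher (20%, against 30.6%) and 7 lower (23.3%, against 27.6%). In Met + LPS against LPS cells, 2 were higher (6.67%, against 14.5%) and 9 lower (30%, against 18%). After rescaling, 2 were higher in this comparison (6.67%, against 15.6%) and 7 lower (23.3%, against 17.4%). Past the study's cut-offs under LPS was 1 of the 30 as deposited (3.33%, against 6.08%), Shpk, and 1 after rescaling (against 6.22%), Gpd2 at 2.20. Shpk (sedoheptulokinase, which feeds the non-oxidative pentose branch) had 5.73 and 6.22 TPM in untreated, 0.484 and 0.459 TPM in LPS and 0.665 and 0.606 TPM in Met + LPS cells (log2 fold change under LPS -2.24 as deposited, -1.89 after rescaling). Past the cut-offs after metformin were Gpd2 (the mitochondrial glycerol phosphate dehydrogenase), Pygb (a glycogen phosphorylase) and Slc37a2 (a sugar phosphate exchanger), all lower. Gpd2 had 14.1 and 15.2 TPM in untreated, 50.5 and 49.5 TPM in LPS and 29.4 and 29.7 TPM in Met + LPS cells, so that, like Slc2a6 and Pfkfb3, it was higher under LPS (1.71, or 2.20 after rescaling) and lower again after metformin (-0.74). Pygb had 52.5 and 55 TPM in LPS and 31.9 and 31.3 TPM in Met + LPS cells (-0.75). Slc37a2 had 438 and 451 TPM in untreated, 203 and 198 TPM in LPS and 123 and 115 TPM in Met + LPS cells, a decrease in both comparisons (-1.14, or -0.62 after rescaling, and -0.75).

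With 2 libraries a group, an exact permutation test of a single gene cannot go below p = 0.333, and the p-values above come from the spread pooled over all genes and 6 libraries.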

How the data were processed

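Poly-A RNA of the BMDMs was read single-end, aligned by the authors to GRCm38 with STAR 2.6.1d and counted per gene with featureCounts (Subread 1.6.3), as their methods and processing notes give. The authors deposited the values as TPM. How counts became TPM is not given in the sources used here. For 96.4% to 96.6% of values above 0, TPM times exon length gave whole numbers of reads (tolerance 0.05), so the TPM are per exon length of the whole gene.

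The main test was limma 3.58.1 (R 4.3.3) applied to log2(TPM + 1) of the 12755 genes with at least 1 TPM in 2 libraries, using eBayes with a trend, 6 libraries in a single fit (3 residual degrees of freedom) and Benjamini-Hochberg adjustment over these genes. It was also run on simulated reads in which some genes were changed in the Met + LPS group alone. These held no shift of the median gene against untreated cells, so they do not cover that feature of the data. Fold changes on this scale understate those of low genes. Members, lists, tests and the rule for named genes (past the study's cut-offs, the 3 largest changes in each direction, and members of families with shares) were chosen with earlier results of these data known. Each choice was varied once (pseudocount 0.1, filter dropped or set to 5 TPM, median-ratio rescaling, compared groups only, replicate block, no trend, adjusted p under 0.05, voom on recovered reads, each library left out). Shares by principal transcript length (GENCODE M21), rescaled sums and the wording of the κB motif were added after seeing the data. Promoters are RefSeq sequences. The paper describes the BMDMs as seeded in duplicate and does not state whether replicates came from separate animals. The p-values therefore measure the spread between these libraries, which may be only that of duplicate cultures. Tables and plots were made in Python 3.11.15 with pandas 2.3.3, numpy 2.4.6 and matplotlib 3.10.9.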

Additional observations from a re-analysis of the deposited data

How the results depend on the processing

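Median-ratio rescaling had the largest effect on differences from untreated cells. Under it, 14 members were higher and 3 lower in LPS against untreated cells, and 15 higher and 9 lower in Met + LPS against untreated cells, since rescaling shifts all genes together. The log2 fold change of LPS against untreated changed sign for Hk3 (0.33), Gpi1 (0.04), Tigar (0.24), Aldoa (0.09), Gapdh (0.22), Pgk1 (0.41), Pgam1 (0.01), Eno1 (0.05), Eno2 (0.18), Pkm (0.09), Ldha (0.20), Ldhb (0.01), Slc16a3 (0.28), Pgm2 (0.09), G6pdx (0.11), Pgd (0.19), Rpia (0.09) and Tkt (0.16). In Met + LPS against LPS the count of lower members was 6 without a filter, 7 in the fit of the compared groups only and 6 without the trend, and 6 to 7 with a library left out. The fits of fewer libraries hold fewer samples, and the cause of the other losses was not tested. Shares of all tested genes were not computed for these settings, so the counts in them have no background beside them. Voom on the recovered reads put 5 members past the study's cut-offs under LPS, adding Pfkfb4 (-2.03) and the Aldoa ID with few reads (-2.93), and a pseudocount of 0.1 put 4 past them, adding Pfkfb4 (-2.04). With a library left out, the other counts ranged from 7 to 8 (higher) and 21 to 25 (lower) for LPS against untreated, from 5 to 6 (higher) for Met + LPS against LPS, and 7 (higher) and 21 to 24 (lower) for Met + LPS against untreated. Same-numbered replicates did not deviate together (correlations of deviations -0.004, 0.028 and 0.006). Deviations within 2 libraries a group cannot show whether same-numbered samples shared an animal or a preparation, and no pairing is stated. With the replicate number as a block, 1 call each was lost for LPS against untreated (Rpia, limma adjusted p = 0.0116) and Met + LPS against LPS (Pkm, limma adjusted p = 0.0109). By principal transcript length, the shares in untreated, LPS and Met + LPS cells were 20.5%, 7.33% and 15.4% for Slc2a1, 16.0%, 1.05% and 1.70% for Slc2a3, 63.5%, 91.6% and 82.9% for Slc2a6, 20.1%, 20.6% and 15.6% for Hk1, 4.79%, 22.5% and 18.2% for Hk2, 75.2%, 57.0% and 66.3% for Hk3, 17.9%, 7.98% and 6.26% for Pfkl, 11.5%, 5.41% and 3.51% for Pfkm, 70.7%, 86.6% and 90.2% for Pfkp, 15.7%, 1.28% and 5.31% for Pfkfb2, 35.4%, 94.9% and 84.0% for Pfkfb3, and 48.9%, 3.84% and 10.7% for Pfkfb4, with the directions between groups as in the deposited TPM. Genes under 10 TPM rest on few reads, with at least 68 per library for Ldhb, 93 for Pfkfb2 and 0 to 9 for the second Aldoa ID.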
